A study of Mus musculus with 9 samples.

Results

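The genes followed here encode the core of the TGF-beta pathway: the ligand Tgfb1, the receptors Tgfbr1, Tgfbr2 and Tgfbr3, the signal transducers Smad2, Smad3 and Smad4, the inhibitory Smad7, and the co-repressors Ski and Skil. They were chosen by gene symbol as 10 of the 24594 genes in the table. RPKM, the reads of a gene scaled to its exon length and to the reads of the library, was available for each of them in all 9 libraries. All 10 were among the 11569 genes that reached 1 RPKM in at least 2 libraries, the filter used for testing, which they did not owe to any single group since each was above 3 RPKM in every library.

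In this pathway the ligand brings a type II receptor kinase (Tgfbr2) together with a type I receptor kinase (Tgfbr1), which phosphorylates Smad2 and Smad3. These bind Smad4 and enter the nucleus, where Ski and Skil repress their targets and Smad7 feeds back on the receptor. Tgfbr3, also called betaglycan, is a co-receptor that presents ligand and has no kinase of its own. In the thymus the pathway is known for its part in the making and survival of regulatory T cells.

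The libraries were made from semimature CD4 single-positive thymocytes (CD4+ CD8- CD69+ Vα2+ Vβ5+) that carried the OT-II T cell receptor transgene, specific for an ovalbumin peptide. All were sorted after 4.7 weeks from radiation chimeras whose hosts had received marrow of OT-II control, OT-II Nr4a1-/- Nr4a3-/- (DKO) and non-transgenic wild-type donors together. Wild-type hosts (WT hosts, BoyJ by their labels) provide no ovalbumin, whereas RIP-mOVA hosts (the Tg(Ins2-TFRC/OVA)296Wehi/WehiJ transgene on C57BL/6, crossed to BoyJ, F1, written RIPmOVA here) express a membrane form of it from the rat insulin promoter, which is also active in the thymic medulla, where it is a self-antigen for OT-II cells. There were n = 2 OT-II and n = 3 DKO WT-host libraries and n = 2 of each from RIPmOVA hosts. OT-II control donors were F1 mice of B6.Cg-Tg(TcraTcrb)425Cbn/J and BoyJ and DKO donors were C57BL/6, so donor background and genotype cannot be told apart. The labels give different strains for the hosts, but the methods describe the WT and RIPmOVA hosts alike as F1 offspring of a cross with BoyJ, so whether the host strains differ was not settled. The OT-II and DKO libraries of the same replicate number in a host type came from the same mouse.

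Recovered depth was 15520000 to 25050000 reads per library. Markers of CD4 single-positive thymocytes were all above 1 RPKM, and their summed level was 1312 to 1483 RPKM in the 9 libraries. Nr4a1 was 60.1 to 87.7 RPKM in DKO-labelled and 60.7 and 86.1 RPKM in OT-II WT-host libraries. In RIPmOVA hosts it was 282 and 235 RPKM in DKO-labelled and 260 and 229 RPKM in OT-II libraries. Nr4a3 was at most 0.665 RPKM in WT hosts. In RIPmOVA hosts it was higher in DKO-labelled libraries, at 16.5 and 14.1 against 5.66 and 3.72 RPKM in OT-II. The gene-level RPKM of Nr4a1 and Nr4a3 thus does not check the genotype label, and these cells are called DKO-labelled. Reads on sensory receptor genes, which T cells are not known to use, marked 4 libraries as standing apart. They were 1144 and 1053 RPM (reads scaled to library size) in replicate 1 of OT-II and replicate 2 of DKO-labelled cells from WT hosts, 1050 and 1497 RPM in the DKO-labelled RIPmOVA libraries, and 293 to 555 RPM in the 5 others. This background therefore followed the genotype label in RIPmOVA hosts, where the background and the genotype cannot be told apart.

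The ligand and the type II receptor were the most abundant of the 10 transcripts per length. Averaged over the 9 libraries, Tgfb1 was 43.8 RPKM, Tgfbr2 39.6 and Smad4 32.7, followed by Smad3 at 19.2 and Tgfbr3 at 18.3. Skil was 13.0 RPKM, Tgfbr1 11.5, Smad2 10.8, Smad7 5.24 and Ski 4.72. Most neighbours in this order were not separated in every library. Tgfb1 exceeded Tgfbr2 in 7 of 9 libraries, Smad3 exceeded Tgfbr3 in 4 and Tgfbr1 exceeded Smad2 in 5, whereas Smad2 exceeded Smad7 in all 9. Each of the 10 genes rested on at least 348 reads in every library (Ski) and at most 10496 (Tgfbr2).

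**Figure D1:**
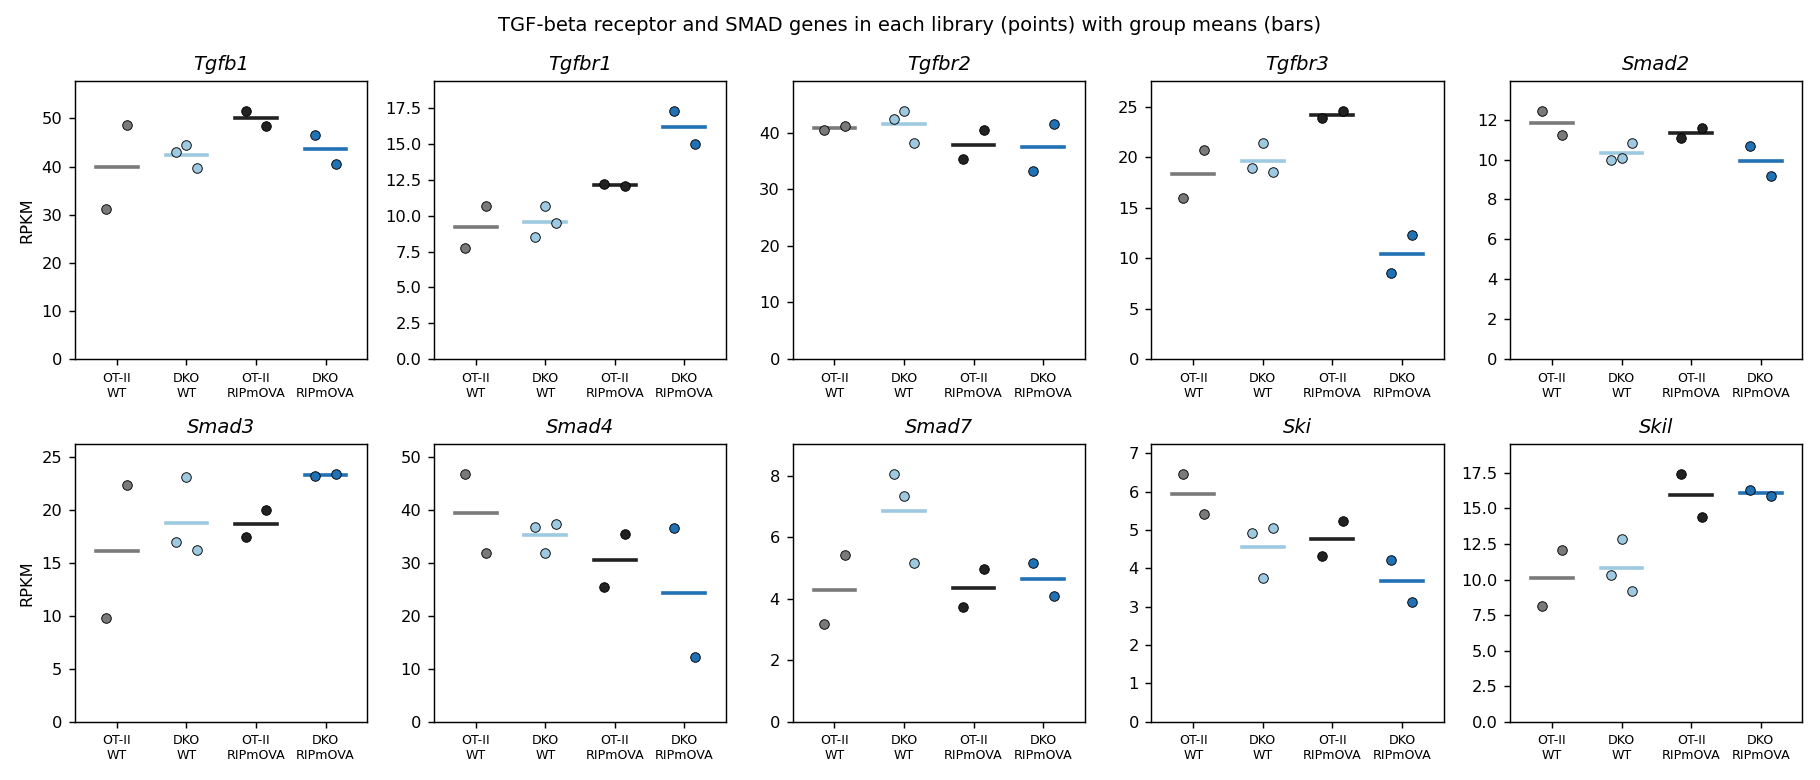
RPKM of the 10 genes (y axes, each from 0) in the 4 groups of genotype and host (x axes), with a point for each library and a bar for the group mean. Tgfbr3 fell to 8.51 and 12.3 RPKM in the DKO-labelled RIPmOVA libraries, below all other libraries, and Tgfbr1 and Skil were higher in all libraries from RIPmOVA than from WT hosts.

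The receptors were examined first. The co-receptor Tgfbr3 (Entrez 21814, chromosome 5, 107106570 to 107289629, GRCm38, minus strand, protein-coding) was the member called between the genotypes when self-antigen was present. It was 15.9 and 20.7 RPKM in OT-II and 19.0, 21.5 and 18.6 RPKM in the DKO-labelled WT-host libraries. In RIPmOVA hosts it was 23.9 and 24.6 RPKM in OT-II but 8.51 and 12.3 RPKM in the DKO-labelled libraries. The DKO-labelled RIPmOVA libraries were thus the 2 lowest of the 9 and the OT-II libraries from the same mice the 2 highest, with no overlap, and in both mice the DKO-labelled cells held the lower value. Between genotypes in RIPmOVA hosts, Tgfbr3 fell by 1.20 on the log2 scale (SE 0.18, limma adjusted p = 0.0121), from a mean of 24.2 ± 0.518 to 10.4 ± 2.71 RPKM (SD, n = 2 each), or 2.33-fold. It was the only gene of the 10 past the threshold of 0.05 there, where 2.21% of all genes tested were, and the only member past the stricter rule that adds an absolute log2 fold change of 1 (1.07% of all genes). In WT hosts the same difference was 0.11 (SE 0.16, limma adjusted p = 0.93), smaller than the spread between libraries.

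The fitted host effects on Tgfbr3 had opposite signs in the 2 genotypes. Tgfbr3 changed by 0.41 (SE 0.18, limma adjusted p = 0.34) from WT to RIPmOVA hosts in OT-II cells, and fell by 0.90 (SE 0.16, adjusted p = 0.0184) in DKO-labelled cells, from 19.7 ± 1.56 (SD, n = 3) to 10.4 ± 2.71 RPKM. The libraries of the 2 hosts did not overlap in either genotype, which held in opposite directions for 3.94% of all genes tested and in this arrangement for 1.30%. The difference between the host effects was -1.31 (SE 0.24, limma adjusted p = 0.168), so it did not pass. Averaged over hosts, Tgfbr3 was lower in DKO-labelled cells by a log2 difference of -0.55 (SE 0.12, limma adjusted p = 0.0449), although the libraries of the genotypes overlapped there. That call held without replicate 1 of the OT-II WT-host or replicate 2 of the DKO-labelled RIPmOVA libraries and was lost without any of the others, with an adjusted p from 0.0667 to 0.146.

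In the bulk libraries, fewer cells with the transcript and less transcript per cell cannot be told apart. The 2 WT-host libraries with most sensory receptor reads held 15.9 and 21.5 RPKM of Tgfbr3, the lowest and the highest of the WT-host values, and both were above the DKO-labelled RIPmOVA libraries. With the level of these reads as a covariate the log2 difference between genotypes in RIPmOVA hosts was -1.19, and its limma adjusted p was 0.176. It was 0.0931 and 0.0949 when replicate 1 or replicate 2 of OT-II in RIPmOVA hosts was left out, with log2 differences of -1.22 and -1.18. Over 20 alternatives it lay from 0.00467 to 0.176. The host effect in DKO-labelled cells lost its call without replicate 1 of the DKO-labelled RIPmOVA libraries (-0.65, adjusted p = 0.135) and without replicate 1 or 3 of those from WT hosts (adjusted p = 0.0608 and 0.0621). With the sensory receptor reads as covariate this host effect was -0.90 (adjusted p = 0.146), and its adjusted p was 0.0814 without a filter and 0.0546 without an intensity trend. Some lists drawn up as markers of other cells differed in summed RPKM between the genotypes in RIPmOVA hosts without overlap. The myeloid or dendritic list, with 4 of 8 genes reaching 1 RPKM, summed to 12.6 and 22.2 RPKM in OT-II and 6.74 and 8.72 RPKM in the DKO-labelled libraries, with Lyz2 at 18.7 and 8.44 against 2.12 and 2.83 RPKM. Lyz2 was the only gene of that list higher in OT-II without overlap. Xcr1, Csf1r, Itgax and Siglech were higher in the DKO-labelled libraries, and Itgam, Cd68 and Fcer1g overlapped. The mesenchymal or endothelial list summed to 30.9 and 35.8 against 47.3 and 55.7 RPKM, nearly all of it Pecam1, and its 5 other genes, Cdh5 and Col1a1 among them, stayed under 1 RPKM in every library. The thymic epithelial list, of which 2 of 6 genes reached 1 RPKM, summed to 4.92 and 7.01 against 7.60 and 11.4 RPKM, mostly Epcam, with Aire at most 0.339 RPKM. Whether Lyz2, Pecam1 and Epcam came from other cells was not tested, nor was the part of these lists in the Tgfbr3 difference. Tgfbr3 overlaps the uncharacterised transcripts Gm43422, Gm43423 and Gm42900 on its own strand and the pseudogene Gm8145 on the other, whose reads could be counted with it.

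The genes whose pattern over the 9 libraries was nearest to that of Tgfbr3, by the root mean square difference of centred log2 values, were Rasal1 (0.14), Arhgap33 (0.18) and Xylt2 (0.20), against a median of 0.50 over 11568 genes. Rasal1, a Ras GTPase-activating protein, was 9.23 and 9.52 RPKM in OT-II and 3.80 and 5.16 RPKM in the DKO-labelled RIPmOVA libraries, and 6.17 to 10.4 RPKM in WT hosts. Xylt2, a xylosyltransferase that starts glycosaminoglycan chains, was 47.2 and 47.0 RPKM against 23.2 in both DKO-labelled RIPmOVA libraries. These genes were picked for their likeness, so their values are a description.

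The type I receptor Tgfbr1 (Entrez 21812, chromosome 4, 47353222 to 47414931, GRCm38, plus strand) was higher in RIPmOVA hosts. It was 7.78 and 10.7 RPKM in OT-II and 8.51, 10.7 and 9.51 RPKM in the DKO-labelled WT-host libraries. In RIPmOVA hosts it was 12.2 and 12.1 RPKM in OT-II and 17.3 and 15.0 RPKM in the DKO-labelled libraries. All 4 RIPmOVA libraries lay above all 5 from WT hosts, and the DKO-labelled RIPmOVA libraries above the rest. Averaged over genotypes, Tgfbr1 rose by 0.56 on the log2 scale (SE 0.11, limma adjusted p = 0.0159) and in DKO-labelled cells alone by 0.73 (SE 0.15, adjusted p = 0.0292), or 1.69-fold. In OT-II cells the difference was 0.40 (SE 0.16, limma adjusted p = 0.293). Neither the difference between these host effects (0.33, limma adjusted p = 0.60) nor that between genotypes in RIPmOVA hosts (0.39, SE 0.16, limma adjusted p = 0.205) passed. The call in DKO-labelled cells was lost without either library of either genotype from RIPmOVA hosts, with an adjusted p from 0.0599 to 0.244, and without replicate 1 or 3 of the DKO-labelled WT-host libraries (0.109 and 0.106). The averaged call was lost without replicate 1 or 2 of OT-II or replicate 1 of DKO-labelled cells from RIPmOVA hosts, with an adjusted p of 0.0711, 0.0587 and 0.0756. With the replicate number as a block across hosts neither call held, at 0.56 averaged (adjusted p = 0.0525) and 0.73 in DKO-labelled cells (adjusted p = 0.114). With the sensory receptor reads as covariate the difference in DKO-labelled cells was 0.78 (limma adjusted p = 0.160) and did not pass.

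Tgfbr2 (Entrez 21813, chromosome 9, 116084293 to 116175360, minus strand), the ligand-binding type II receptor, passed the test in no comparison. It spanned 33.3 to 43.9 RPKM over the 9 libraries, with 40.8 ± 0.509 (n = 2) in OT-II and 41.5 ± 2.94 (n = 3) in DKO-labelled cells from WT hosts, and 37.8 ± 3.65 and 37.4 ± 5.87 RPKM (SD, n = 2 each) in RIPmOVA hosts. Its host effect averaged over genotypes was -0.13 (SE 0.08, limma adjusted p = 0.439). The ratios between the receptors followed Tgfbr1 and Tgfbr3. Tgfbr2 was 3.86 to 5.20 times Tgfbr1 in the 5 WT-host libraries, 2.88 to 3.34 times in OT-II and 1.92 to 2.76 times in the DKO-labelled RIPmOVA libraries. It was 1.99 to 2.54 times Tgfbr3 in WT hosts, 1.48 to 1.64 times in OT-II and 3.37 to 3.91 times in the DKO-labelled RIPmOVA libraries. The 3 sets did not overlap in either ratio, and the OT-II and DKO-labelled RIPmOVA libraries moved the same way from WT hosts in the first ratio and opposite ways in the second. These ratios come from the same values as the tests and received none of their own.

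**Figure D2:**
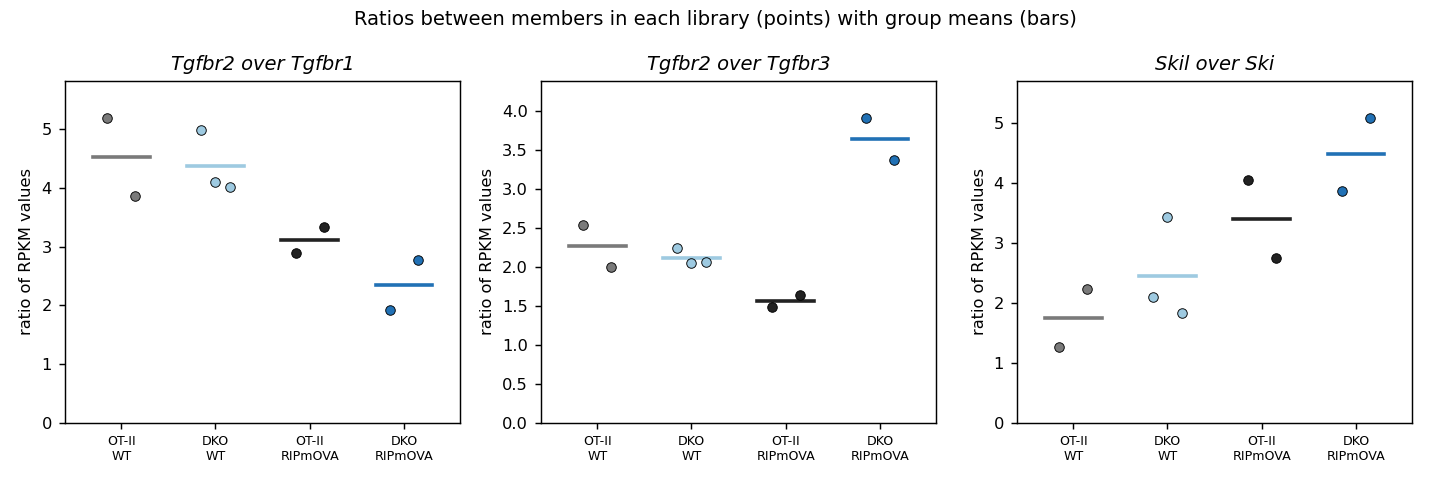
Ratios of RPKM between members (y axes, from 0) in each library (points) with group means (bars), by genotype and host (x axes). Tgfbr2 over Tgfbr1 was 3.86 or more in WT hosts and 3.34 or less in RIPmOVA hosts, Tgfbr2 over Tgfbr3 was 3.37 and 3.91 only in the DKO-labelled RIPmOVA libraries, and Skil over Ski reached 5.09 there.

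Promoter windows of 5 members (Tgfb1, Tgfbr1, Tgfbr2, Smad3 and Ski) were in the RefSeq table, with 2 windows for Tgfbr1, and those at the annotated gene starts of the receptor kinases are shown because Tgfbr1 passed the host test and Tgfbr2 passed none. They are the 250 bases upstream of the start on GRCm38.p6, at chr4:47352972-47353221 (plus strand) and chr9:116175364-116175613 (minus strand), each written 5′ to 3′ on the strand of its gene.
Tgfbr1: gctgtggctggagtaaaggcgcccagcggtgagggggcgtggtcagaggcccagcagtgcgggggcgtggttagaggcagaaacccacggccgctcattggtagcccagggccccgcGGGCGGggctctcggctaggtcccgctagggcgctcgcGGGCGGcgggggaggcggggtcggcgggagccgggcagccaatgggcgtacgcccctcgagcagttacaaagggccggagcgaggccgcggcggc
Tgfbr2: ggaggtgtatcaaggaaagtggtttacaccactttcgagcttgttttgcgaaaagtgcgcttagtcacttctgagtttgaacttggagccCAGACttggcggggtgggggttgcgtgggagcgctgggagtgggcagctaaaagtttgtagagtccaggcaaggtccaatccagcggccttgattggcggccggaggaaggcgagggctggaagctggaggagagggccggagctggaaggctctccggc
Capitals mark GC boxes (GGGCGG) in Tgfbr1 and the SMAD-binding core CAGAC in Tgfbr2. The other Tgfbr1 window, further into the gene, was not searched. The first window held 74.8% G and C, with 2 GC boxes, and no match to the NR4A response element NBRE (AAAGGTCA), the AP-1 site TGANTCA, the NFAT core GGAAA or CAGAC on either strand. The second held 58.4% G and C, with 1 CAGAC, 1 GGAAA and none of the other 3. Of 32851 windows of this length in the table, 32.7% held a GC box, 42.2% CAGAC, 55.6% GGAAA, 6.75% the AP-1 site and 1.34% NBRE on either strand. A match describes letters only, and these motifs were picked with results known.

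The ligand Tgfb1 (Entrez 21803, chromosome 7, 25687002 to 25705077, plus strand), which T cells both make and respond to, passed the test in no comparison. It was lowest in replicate 1 of OT-II cells from WT hosts at 31.2 RPKM and highest in replicate 1 of OT-II cells from RIPmOVA hosts at 51.6 RPKM. Group means were 40.0 ± 12.3 (n = 2) in OT-II and 42.4 ± 2.46 (n = 3) in DKO-labelled cells from WT hosts, and 50.0 ± 2.25 and 43.6 ± 4.25 RPKM in RIPmOVA hosts (SD, n = 2 each). The host difference in OT-II cells was 0.35 (SE 0.18, limma adjusted p = 0.429), and its libraries overlapped. Without replicate 2 of OT-II cells from WT hosts, the higher of that pair, it was 0.67 with an adjusted p of 0.0279, so the call rests on which WT-host library is kept.

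Among the SMAD genes none passed the test. Smad2 (Entrez 17126, chromosome 18, 76241580 to 76310963, plus strand), a receptor-activated SMAD, spanned a narrow range over the libraries, from 9.16 to 12.4 RPKM. It was 12.4 and 11.2 RPKM in OT-II against 9.99, 10.1 and 10.8 RPKM in the DKO-labelled WT-host libraries, and 11.1 and 11.6 against 10.7 and 9.16 RPKM in RIPmOVA hosts. All DKO-labelled libraries thus lay below all OT-II libraries, the only member of which this held, where 5.62% of all genes were so separated in either direction. The difference averaged over hosts was small, at -0.19 (SE 0.08, limma adjusted p = 0.219). Smad3 (Entrez 17127, chromosome 9, 63646767 to 63757994, minus strand), the other receptor-activated SMAD, differed widely between replicates, with 9.82 and 22.4 RPKM in OT-II and 17.0, 23.1 and 16.2 RPKM in the DKO-labelled WT-host libraries. In RIPmOVA hosts it was 17.4 and 20.0 RPKM in OT-II and 23.3 and 23.4 RPKM in the DKO-labelled libraries. The host difference in OT-II cells was 0.32 (SE 0.31, limma adjusted p = 0.699) and turned to -0.25 without replicate 1 of the WT hosts and to 0.89 (adjusted p = 0.0428) without replicate 2, so it had no settled direction.

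Smad4 (Entrez 17128, chromosome 18, 73639009 to 73703780, minus strand), the common partner of the activated SMADs, held the widest spread within a group. It was 46.9 and 31.8 RPKM in OT-II and 36.8, 31.9 and 37.4 RPKM in the DKO-labelled WT-host libraries. In RIPmOVA hosts it was 25.5 and 35.5 RPKM in OT-II and 36.6 and 12.3 RPKM in the DKO-labelled libraries. The last 2 values rest on 4274 and 1225 reads, and the cause of their difference was not tested. The host difference in DKO-labelled cells was -0.72 (SE 0.37, limma adjusted p = 0.344) with both libraries, 0.052 (adjusted p = 0.94) without replicate 2, and -1.48 (adjusted p = 0.0277) without replicate 1, so the value was decided by a single library. Smad4 was below Smad3 in that library alone, at 0.524 times Smad3, against 1.38 to 4.78 times in the other 8. A pseudogene on the other strand, AC132418.2, overlaps it.

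Smad7 (Entrez 17131, chromosome 18, 75367529 to 75395935, plus strand), the inhibitory SMAD that TGF-beta itself induces, was highest on average in DKO-labelled cells from WT hosts. It was 3.18 and 5.43 RPKM in OT-II and 8.08, 7.35 and 5.17 RPKM in the DKO-labelled WT-host libraries, and 3.74, 4.96, 5.17 and 4.09 RPKM in the 4 RIPmOVA libraries. The highest OT-II library exceeded the lowest DKO-labelled library in WT hosts, and the difference of 0.64 (SE 0.24, limma adjusted p = 0.551) did not pass. In DKO-labelled cells the host difference was -0.51 (SE 0.24, limma adjusted p = 0.315).

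The co-repressors were Skil and Ski. Skil (Entrez 20482, chromosome 3, 31095058 to 31122577, plus strand), which encodes SnoN, was higher in RIPmOVA hosts. It was 8.14 and 12.1 RPKM in OT-II and 10.3, 12.9 and 9.21 RPKM in the DKO-labelled WT-host libraries, and 17.5 and 14.4 against 16.3 and 15.9 RPKM in RIPmOVA hosts. All 4 RIPmOVA libraries were above all 5 from WT hosts, while the genotypes overlapped within each host. Averaged over genotypes Skil rose by 0.61 (SE 0.13, limma adjusted p = 0.0294), or 1.52-fold. Within a genotype the differences were of like size but did not pass, at 0.65 (SE 0.20, limma adjusted p = 0.171) in OT-II and 0.57 (SE 0.18, limma adjusted p = 0.148) in DKO-labelled cells. With any single library from RIPmOVA hosts left out the averaged call was lost, with log2 differences of 0.54 to 0.68 and adjusted p from 0.058 to 0.13, and it was also lost without replicate 1 of OT-II or replicate 1 or 3 of DKO-labelled cells from WT hosts (adjusted p = 0.0583, 0.0688 and 0.069). With the replicate number as a block across hosts the averaged difference was 0.56 (limma adjusted p = 0.0826). The averaged call was also lost with the sensory receptor reads as covariate. In OT-II cells alone the difference passed only without replicate 2 of the WT hosts (0.92). That fit kept a single OT-II WT-host library, replicate 1, which held many sensory receptor reads.

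Ski (Entrez 20481, chromosome 4, 155154075 to 155222592, minus strand), the founding member of that co-repressor family, was the least abundant member and passed no test. It was 6.47 and 5.42 RPKM in OT-II and 4.91, 3.74 and 5.05 RPKM in the DKO-labelled WT-host libraries, and 4.32 and 5.24 against 4.21 and 3.12 RPKM in RIPmOVA hosts. DKO-labelled libraries were below OT-II libraries within each host, by the same -0.35 in WT (SE 0.17, limma adjusted p = 0.676) and RIPmOVA hosts (SE 0.19, limma adjusted p = 0.313). Averaged over hosts the difference was -0.35 (SE 0.13, limma adjusted p = 0.18). The level of Skil was 1.26 to 3.44 times that of Ski in WT hosts and 2.74 to 5.09 times in RIPmOVA hosts, and these ranges overlapped.

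Counted over the 10 genes, few passed. In OT-II cells 0 of 10 passed the limma test between hosts, where 1.89% of all genes did, and 3 had an unadjusted p under 0.05 (14.3%). In DKO-labelled cells 2 of 10 passed between hosts, Tgfbr1 higher and Tgfbr3 lower, against 3.35% of all genes. Averaged over genotypes 2 of 10 passed between hosts, Tgfbr1 and Skil, both higher, against 6.75% of all genes (3.96% higher). Between genotypes 1 of 10 passed in RIPmOVA hosts (2.21% of all genes) and averaged over hosts (3.30%, of which 1.85% lower), Tgfbr3 in each, lower. In WT hosts limma called 0 of 10 (0.0692% of all genes) and 1 had an unadjusted p under 0.05 (7.89%), and for the difference between host effects it called 0 of 10 (0.0173%) and 1 had an unadjusted p under 0.05 (9.32%).

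Separation of single libraries was near its background. The libraries did not overlap for 5 of 10 members between hosts in OT-II cells and 4 of 10 in DKO-labelled cells, where this held for 41.6% and 40.0% of all genes tested. Between genotypes it held for 6 of 10 in RIPmOVA hosts (59.0% of all genes) and 2 of 10 in WT hosts (20.8%). These shares therefore show nothing particular about the members. For all 4 RIPmOVA against all 5 WT-host libraries it held for 2 of 10, Tgfbr1 and Skil, against 8.39% of all genes. Medians over the 10 genes were 0.18 between hosts in OT-II and -0.10 in DKO-labelled cells, and -0.10 between genotypes in RIPmOVA and 0.08 in WT hosts, beside -0.02, 0.03, 0.04 and 0.01 over all genes. The comparisons share libraries with each other.

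**Figure D3:**
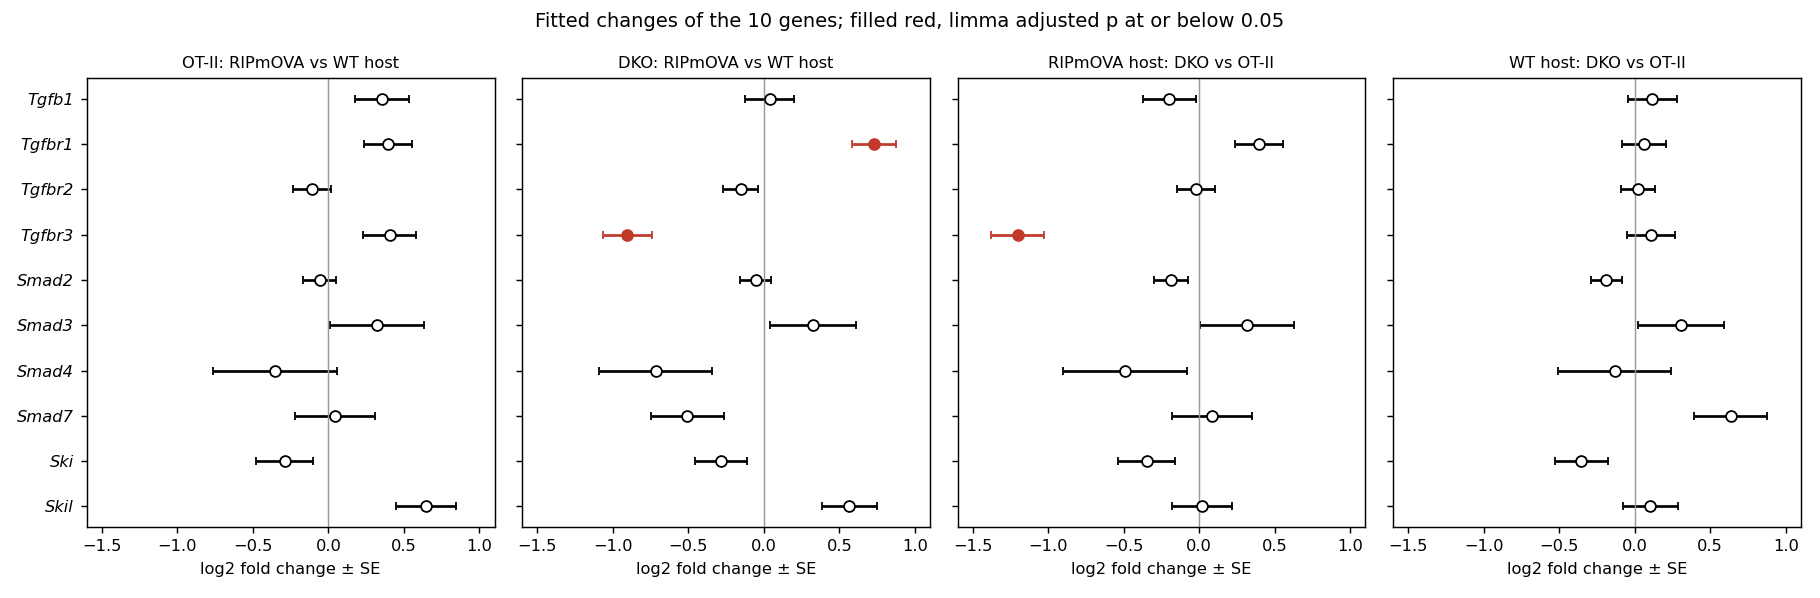
Log2 fold changes fitted by limma (x axes, points with SE bars) of the 10 genes (y axis) in the 4 pairwise comparisons, red where the adjusted p was at or below 0.05. Tgfbr1 at 0.73 and Tgfbr3 at -0.90 passed between hosts in DKO-labelled cells, Tgfbr3 at -1.20 passed between genotypes in RIPmOVA hosts, and the other points did not pass.

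The wider pathway was described by 72 other genes in 5 lists, of which 43 passed the filter on low values. Between hosts in OT-II cells, limma called 3 of these 43 higher and 1 lower (1.43% and 0.467% of all genes), and in DKO-labelled cells 2 higher and 1 lower (2.32% and 1.03%). Between genotypes in RIPmOVA hosts 1 was higher and 5 were lower in DKO-labelled cells (0.908% and 1.31% of all genes). Of these 5, Lrrc32 and Foxp3 reached 1 RPKM only in the 2 OT-II RIPmOVA libraries, so the filter fixed their direction, and their calls, with that of Lrrc32 among the 3 higher between hosts in OT-II cells, support nothing. Acvrl1 likewise passed the filter only through OT-II libraries, since of the DKO-labelled libraries only replicate 2 from WT hosts reached 1 RPKM. Its calls between genotypes therefore support nothing either. Itgae and Id2 remain lower between genotypes, and Tgif1 and Itgae higher between hosts in OT-II cells. In WT hosts 1 was lower (0.0519%), again Acvrl1, while 0.0173% of all genes were higher. The 43 genes had median log2 fold changes of 0.06, 0.06, -0.00 and 0.02 in these comparisons, near those of all genes. Of the genes under 1 RPKM in most or all libraries, Tgfb2 and Tgfb3, the other TGF-beta ligands, reached at most 0.41 and 1.52 RPKM.

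Of the ligands and their activators, 7 of 18 passed the filter and 1, Lrrc32, was called. The calls were higher between hosts in OT-II cells (1.43% of all genes) and lower between genotypes in RIPmOVA hosts (1.31%). The averaged calls had the same directions (3.96% higher between hosts, 1.85% lower between genotypes). Lrrc32 encodes GARP, which holds latent TGF-beta on the surface of regulatory T cells. It was 3.46 and 3.63 RPKM in OT-II and 0.711 and 0.622 RPKM in the DKO-labelled RIPmOVA libraries, and 0.092 to 0.662 RPKM in WT hosts. It passed the filter only through the 2 OT-II RIPmOVA libraries, so the filter chose it for being high there. Of the other receptors of the superfamily 5 of 12 passed the filter. Acvrl1, a type I receptor that lies near Nr4a1 on chromosome 15, was 17.5 and 17.0 RPKM in OT-II against 0.961 and 0.696 RPKM in the DKO-labelled RIPmOVA libraries, and 25.7 and 31.3 against 0.984 to 1.48 RPKM in WT hosts. Its log2 differences between genotypes were -3.75 in RIPmOVA and -4.14 in WT hosts (SE 0.18 and 0.17, limma adjusted p = 6.7e-05 and 1.2e-05). Acvrl1 passed the filter only through the OT-II libraries, so the filter chose it for being high there.

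Of the other SMADs and their partners 10 of 14 passed the filter, and 1 was called in each host comparison. The shares of all genes were 1.89% in OT-II cells, 3.35% in DKO-labelled cells and 6.75% averaged over genotypes. Tgif1, a homeodomain co-repressor that binds SMADs, was 2.36 and 2.24 RPKM in OT-II and 1.31, 1.45 and 1.45 RPKM in the DKO-labelled WT-host libraries. In RIPmOVA hosts it was 6.43 and 4.98 RPKM in OT-II and 8.86 and 5.45 RPKM in the DKO-labelled libraries. All RIPmOVA libraries were above those from WT hosts, and Tgif1 rose by 1.14 (SE 0.22, limma adjusted p = 0.0335) in OT-II and by 1.97 (SE 0.20, limma adjusted p = 0.00118) in DKO-labelled cells. The call in OT-II cells held in 7 of 21 alternative fits and that in DKO-labelled cells in all 21.

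Of the regulators of receptor and SMAD turnover 15 of 16 passed the filter. Between hosts in DKO-labelled cells 1 was called higher and 1 lower (2.32% and 1.03% of all genes). Averaged over genotypes 2 were called higher between hosts, against 3.96% of all genes. Ldlrad4, which limits access of Smad2 and Smad3 to the receptor, was 1.94 to 3.66 RPKM in WT hosts, 4.30 and 3.94 RPKM in OT-II and 6.17 and 5.10 RPKM in the DKO-labelled RIPmOVA libraries. It rose by 1.08 (SE 0.23, limma adjusted p = 0.041) between hosts in DKO-labelled cells, a difference of 0.71 (adjusted p = 0.273) with the sensory receptor reads as covariate. Usp11, a deubiquitinase of the type I receptor, was 1.78 to 3.66 RPKM in WT hosts and 3.75 to 6.70 RPKM in RIPmOVA hosts and rose by 0.80 averaged over genotypes (SE 0.17, limma adjusted p = 0.0268). The highest value in WT hosts lay just under the lowest in RIPmOVA hosts. Smurf1, a ubiquitin ligase that Smad7 brings to the receptor, was 13.8, 14.5 and 13.5 RPKM in DKO-labelled cells from WT hosts and 6.85 to 9.70 RPKM in the 6 other libraries. It fell by 0.64 (SE 0.14, limma adjusted p = 0.047) between hosts in DKO-labelled cells. With the sensory receptor reads as covariate this difference was -0.53 (limma adjusted p = 0.358). Of the alternative fits, 11 of 21 kept the call of Ldlrad4, 12 of 20 that of Usp11 and 9 of 21 that of Smurf1.

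Of the genes known to respond to TGF-beta, a list that also holds the members Skil, Ski and Smad7, 10 of 16 passed the filter. Between genotypes in RIPmOVA hosts 1 was called higher and 3 lower in DKO-labelled cells (0.908% and 1.31% of all genes). Id3 was higher, and Itgae and Id2 were lower, beside Foxp3, whose direction the filter fixed. Itgae, which encodes CD103, was 7.28 and 13.8 RPKM in OT-II and 1.46 and 1.44 RPKM in the DKO-labelled RIPmOVA libraries, a log2 difference of -2.43 (SE 0.33, limma adjusted p = 0.00809). Id2, an inhibitor of E proteins, was 80.4 and 93.7 against 45.5 and 44.4 RPKM (-0.94, SE 0.17, limma adjusted p = 0.0276). With the sensory receptor reads as covariate neither call held, with Itgae at -2.53 (limma adjusted p = 0.119) and Id2 at -0.62 (adjusted p = 0.373). Id3, its relative, moved the other way, with 108 and 95.1 against 142 and 143 RPKM (0.49, SE 0.10, limma adjusted p = 0.036). Under median-of-ratios scaling the Id3 difference was 0.26 (limma adjusted p = 0.335), and with the sensory receptor reads as covariate 0.51 (adjusted p = 0.307). Foxp3, the regulatory T cell factor, reached 1 RPKM only in the 2 OT-II RIPmOVA libraries, at 1.90 and 3.31 RPKM, and so passed the filter only through them. Between hosts in OT-II cells Itgae rose by 2.53 (SE 0.33) and Id3 fell by 0.74 (SE 0.10), each at a limma adjusted p of 0.00606. Of all genes, 1.43% were called higher there and 0.467% lower. Over the alternative fits, the calls between genotypes in RIPmOVA hosts held in 18 of 20 for Itgae, 13 of 20 for Id2 and 9 of 20 for Id3, and those between hosts in OT-II cells in 18 of 21 for Itgae and 17 of 21 for Id3. Members of this list thus moved in both directions, and the lists share the background reads and marker differences given above.

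**Figure D4:**
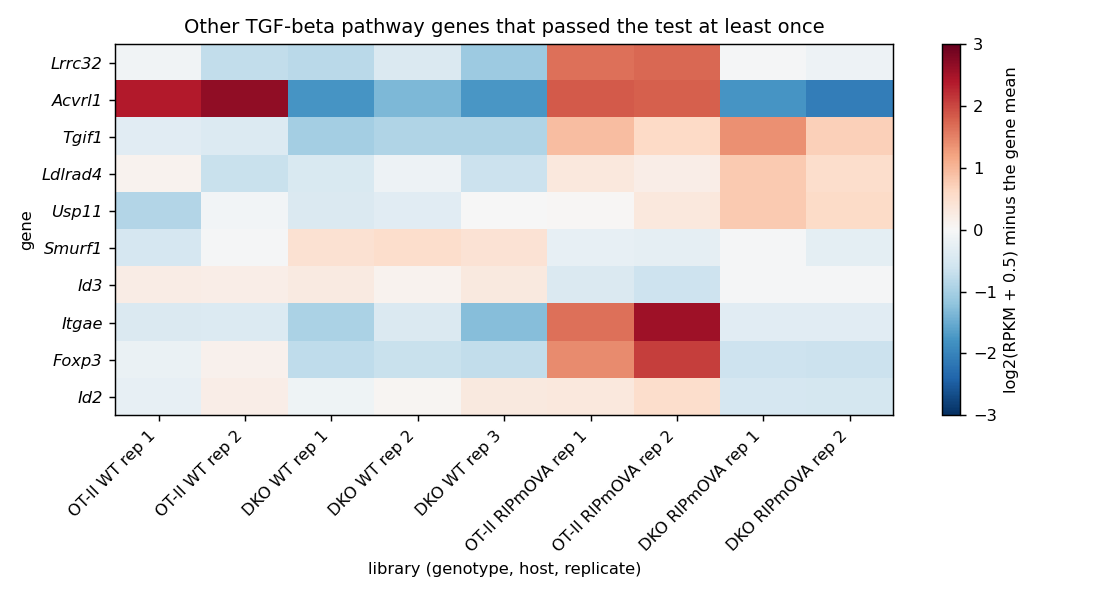
Log2(RPKM + 0.5) minus the mean of each gene over the 9 libraries (colour, red above and blue below) for the 10 other pathway genes that passed the test at least once (y axis) in each library (x axis). Tgif1 is above its mean in all 4 RIPmOVA libraries and Itgae is highest in the 2 OT-II libraries from these hosts. Lrrc32, Foxp3 and Acvrl1 passed the filter only through OT-II libraries in which they are high, so their patterns between genotypes support nothing.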

How the data were processed

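The measurements were RNA-seq profiles of 9 libraries in 4 groups. According to the methods, the authors made cDNA with the SMART-seq v4 kit and libraries with Nextera XT, aligned paired reads to mm10 with STAR and GENCODE vM17, removed duplicates with Picard and counted reads over the exons of Entrez genes. The deposited unit is RPKM. Whether counting used strand was not given in the sources used here, so overlapping genes are uncertain. The authors tested differences with DESeq2, and those results were not used.

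The members, lists, motifs and tests were chosen with earlier results of these data known. The named genes were all 10 members, up to 4 called genes per pathway list and the 3 genes nearest in pattern to a member called with a log2 change of 1 or more in size. Because RPKM are not counts, log2(RPKM + 0.5) was fitted with limma 3.58.1 (R 4.3.3) as group means over all 9 libraries, with an intensity trend, for genes with at least 1 RPKM in at least 2 libraries. Fold changes are on this scale, which understates low genes. Tests were two-sided with Benjamini-Hochberg adjustment over 11569 genes and a threshold of 0.05. On simulated data the fit recovered 77.8% of log2 changes of 1.5 in size and 92.2% of those of 3. Of its calls 6.04% were false, and smaller changes were not simulated. Tables were read with Python 3.11.15, numpy 2.4.6 and pandas 2.3.3, and plots drawn with matplotlib 3.10.9. Coordinates are those of GENCODE on GRCm38, the build of mm10.

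Depth was worked out from the smallest steps of RPKM, each worth 1 read, which in every library gave whole reads within 0.1 read for 100% of values checked and for at most 28.3% at a wrong depth. The floor of 3 reads is 0.12 to 0.193 RPKM at 1 kb of exon and covers counting error only. Replicates of a group correlated across genes with r from 0.959 to 0.986. Each library of a group came from a different mouse. By the labels, a number pairs the genotypes within a host, since both were sorted from the same mouse. Deviations of such pairs from their group means correlated across genes with r = 0.01, -0.24 and -0.08. Libraries with the same number in the 2 hosts are from different mice, but correlated with r = 0.23 for OT-II cells, and 0.10 and 0.23 for DKO-labelled cells, so a block by number across hosts is given where it changed a call. Alternatives were pseudocounts of 0.1 and 1, no filter or one at 5 RPKM, median-of-ratios and quantile scaling, only the groups compared, no trend, 2 replicate blocks, the sensory receptor reads as covariate, voom on recovered reads, a stricter call and leaving out each library.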

Additional observations from a re-analysis of the deposited data

Results flagged for a closer look

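The host effect on Tgfbr3 had opposite signs in the 2 genotypes, without overlap of libraries in either. Of all genes tested, 3.94% did so in opposite directions and 1.30% in this arrangement, up in OT-II and down in DKO-labelled cells. The log2 values for Tgfbr3 were 0.41 for OT-II and -0.90 for DKO-labelled cells, and the difference between them was -1.31 (SE 0.24, limma adjusted p = 0.168). The difference did not pass the correction over all genes. Leaving out replicate 2 of OT-II cells from WT hosts gave -1.49. That fit kept replicate 1, with 1144 RPM of sensory receptor reads, as the only OT-II WT-host library. No other alternative fit brought the Tgfbr3 difference past the threshold.

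Id2, of the list of TGF-beta responsive genes, showed the same arrangement, which held for 1.30% of all genes tested. It was 54.0 and 74.3 RPKM in OT-II and 59.3, 67.7 and 79.6 RPKM in the DKO-labelled WT-host libraries, and 80.4 and 93.7 against 45.5 and 44.4 RPKM in RIPmOVA hosts. The host effects were 0.45 and -0.60. The difference between them was -1.05 (SE 0.23, limma adjusted p = 0.271), which did not pass either. It passed in 1 of 19 alternatives, again the fit without replicate 2 of OT-II cells from WT hosts (-1.28). In RIPmOVA hosts the libraries with the lower values of both genes were those with most reads on sensory receptor genes, where this background and the genotype cannot be told apart.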

How the results depend on the processing

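The number of the 10 genes called depended on the settings, while the signs of the called differences did not. The calls between hosts in DKO-labelled cells (2 genes), between genotypes in RIPmOVA hosts (1), between hosts averaged over genotypes (2) and between genotypes averaged over hosts (1) became, in that order, 0, 0, 0 and 0 without a filter, and 0, 0, 1 and 0 with the sensory receptor reads as covariate. Median-of-ratios scaling gave 1 and 0 for the comparisons between hosts, no intensity trend 0 and 1, and quantile normalization 0 for the averaged genotype. Without a trend the averaged genotype also had 0. A required log2 fold change of 1 left 0, 1, 0 and 0.

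Leaving out 1 library at a time gave 0 to 2 calls between hosts in DKO-labelled cells, 0 to 1 between genotypes in RIPmOVA hosts, 0 to 4 and 0 to 1 in the averaged comparisons, 0 to 3 between hosts in OT-II cells and 0 to 1 for the difference between host effects. Counts above those of the main fit arose only without replicate 2 of OT-II cells from WT hosts. Replicate 1 was then the only library of its group, at 1144 RPM of sensory receptor reads. The host difference of Smad3 in OT-II cells ranged from -0.25 (limma adjusted p = 0.81, without replicate 1 of the WT hosts) to 0.89, and that of Smad4 in DKO-labelled cells from -1.48 to 0.052 (limma adjusted p = 0.94, without replicate 2 of the RIPmOVA hosts). With the mouse as replicate block the calls stayed at 2, 1, 2 and 1, and Tgfbr3 differed by -1.20 between genotypes in RIPmOVA hosts. A replicate block by number across hosts gave 1 and 0 calls between hosts, without Tgfbr1 and Skil. The causes were not tested.

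Over 20 alternatives the Tgfbr3 difference between genotypes in RIPmOVA hosts ranged from -1.46 to -0.95 and passed in 16 (limma adjusted p from 0.00467 to 0.176). Median-of-ratios scaling moved the median of all genes in that comparison from 0.04 to -0.17, and the Tgfbr3 difference to -1.43. It moved the median between hosts in DKO-labelled cells from 0.03 to -0.13, and the Tgfbr1 difference to 0.56 (limma adjusted p = 0.134). Of the fold changes recomputed, for members and pathway-list genes together, 686 kept direction and side of the threshold, 155 lost the call, 8 gained it and 2 changed sign. The 686 include differences that were not called in the main fit and so could not lose a call. With 2 or 3 libraries a group, small differences of the other members are not resolved.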
